A study of Mus musculus with 8 samples.

Results

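Acute phase genes encode secreted proteins whose levels in blood climb during inflammation, and 6 of them were followed here in mouse embryonic fibroblasts (MEFs): Saa3, Lcn2, Serpina3n, Hp, Lbp and C3. Every probe set that the platform annotation gives 1 of these symbols alone was taken. That left 6 probe sets of 5 genes, out of 12422 probe sets and 8251 genes, with 2 probe sets for Lcn2 and none for C3, which was not analysed here. The expression levels come from 8 Affymetrix arrays, in 4 groups of 2. The groups were STAT3+/+ MEFs left untreated, STAT3+/+ MEFs given oncostatin M (OSM) at 20 ng/ml for 30 minutes, STAT3-/- MEFs left untreated and STAT3-/- MEFs given the same OSM treatment. All cells had become immortal spontaneously and grew in medium with 10% heat-inactivated serum and 2 mM glutamine, so the untreated cells were not free of serum factors. Each title ends in 02 or 03, called replicate 2 and replicate 3 below. The study's text calls them replications, and the labels do not say whether a number marks a cell line, a culture or a day. The p-values reflect variation between arrays only, and this variation may be technical. An effect of Stat3 and any other difference between the STAT3+/+ and STAT3-/- cells cannot be told apart.

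In the liver, the acute phase response is driven by cytokines of the interleukin-6 family, which signal through gp130 (Il6st) and the transcription factor STAT3, together with interleukin-1, which acts through NF-kB and C/EBP factors. OSM is a member of the interleukin-6 family that fibroblasts respond to through the OSM receptor. Some acute phase genes are also made outside the liver: Saa3 is the serum amyloid A of mouse connective tissue and macrophages, and Lcn2 (lipocalin 2) binds the siderophores with which bacteria take up iron. Serpina3n inhibits serine proteases, haptoglobin (Hp) captures free haemoglobin, and the LPS-binding protein Lbp carries bacterial endotoxin to CD14.

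The upstream sequences of Saa3 and Lcn2 are shown because, of the 3 members that reached a log2 level of 5 on at least 2 arrays, these have an entry in the RefSeq promoter table. That table holds 4 of the 6 genes. Each line gives the 250 bases before the start of the gene, 5′ to 3′ on the gene's strand, from build GRCm38.p6. Capitals mark matches to a searched motif.
Saa3: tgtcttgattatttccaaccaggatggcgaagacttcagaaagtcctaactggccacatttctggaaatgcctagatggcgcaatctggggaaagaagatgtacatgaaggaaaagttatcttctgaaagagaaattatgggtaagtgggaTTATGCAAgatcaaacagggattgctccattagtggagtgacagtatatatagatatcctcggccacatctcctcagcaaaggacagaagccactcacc
Lcn2: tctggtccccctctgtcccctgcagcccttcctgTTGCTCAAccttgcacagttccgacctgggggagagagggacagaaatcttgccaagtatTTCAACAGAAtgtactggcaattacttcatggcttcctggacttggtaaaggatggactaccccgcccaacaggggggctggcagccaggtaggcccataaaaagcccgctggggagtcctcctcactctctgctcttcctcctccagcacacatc
The Saa3 stretch lies on the minus strand at chr7:46715677-46715926, and the Lcn2 stretch on the minus strand at chr2:32387740-32387989. Motifs were searched on both strands over 300 bases, from 250 before the start to 50 after it. They were the STAT sites TTCNNNGAA and TTCNNNNGAA, the C/EBP core TTGCNNAA and the NF-kB consensus. The Saa3 window holds a single match, to the C/EBP core, at position -99 and on the opposite strand. The Lcn2 window holds a match to the STAT site with a 4-base spacer at -156 and one to the C/EBP core at -216. The C/EBP core occurs in 10.8% of the 32817 promoters of the table and the STAT site with the 4-base spacer in 6.95%, so neither is rare. The Serpina3n window holds no match to these letters. A match of letters is no evidence of binding.

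Levels are log2 values as the authors deposited them, and values below 5 are treated here as near the background of these arrays. The 8 arrays were alike in overall level, with medians between 5.27 and 5.66 and with 51.1% to 52.9% of probe sets at 5 or more. The replicate numbers stood apart strongly. With limma, 41.1% of the 6756 probe sets that reached 5 on at least 2 arrays differed between replicate 3 and replicate 2 after Benjamini-Hochberg adjustment. Within STAT3+/+ cells the share was 46.3%, and within STAT3-/- cells it was 28.5%. In replicate 3, 17 of 23 kept interferon-stimulated genes were called higher (list median 3.42), and all 23 differences lay above 0. Of 25 kept proliferation genes 19 were called lower and 1 higher (list median -2.13), and only that 1 lay above 0. Each member is therefore given within each number as well as over both. The probe set 99099_at for Stat3 itself read 10.1 to 11.9 on the STAT3+/+ arrays and 7.81 to 9.17 on the STAT3-/- arrays. The second one, 99100_at, read 9.80 to 12.6 on STAT3+/+ arrays and 2.76 to 2.94 on 3 STAT3-/- arrays, and 7.30 on the library labelled STAT3-/- OSM replicate 3. The labels do not place these probes relative to the deletion. Fibroblast markers were strongly expressed, with 13 to 14 of 18 at 5 or more on each array, Col1a1 between 15.0 and 15.9 among them.

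Saa3, Lcn2 and Lbp reached a level of 5 on at least 2 arrays. Serpina3n, Hp and the second Lcn2 probe set stayed below 5 on all 8 arrays. Saa3 was high in 1 pair of arrays and near background elsewhere, Lbp was expressed throughout and low in a different pair, and Lcn2 passed 5 only with OSM in STAT3+/+ cells. For all 5 genes the highest of the 8 arrays was a STAT3+/+ OSM array, which holds for 18.4% of all 8251 genes. An untreated STAT3+/+ array was the highest for 45.5% of all genes. The 3 kept members compare with 25.9% of the 5195 genes kept. Lcn2 was kept only through its STAT3+/+ OSM arrays, so its place was fixed by the filter, and Serpina3n and Hp lie near background.

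**Figure D1:**
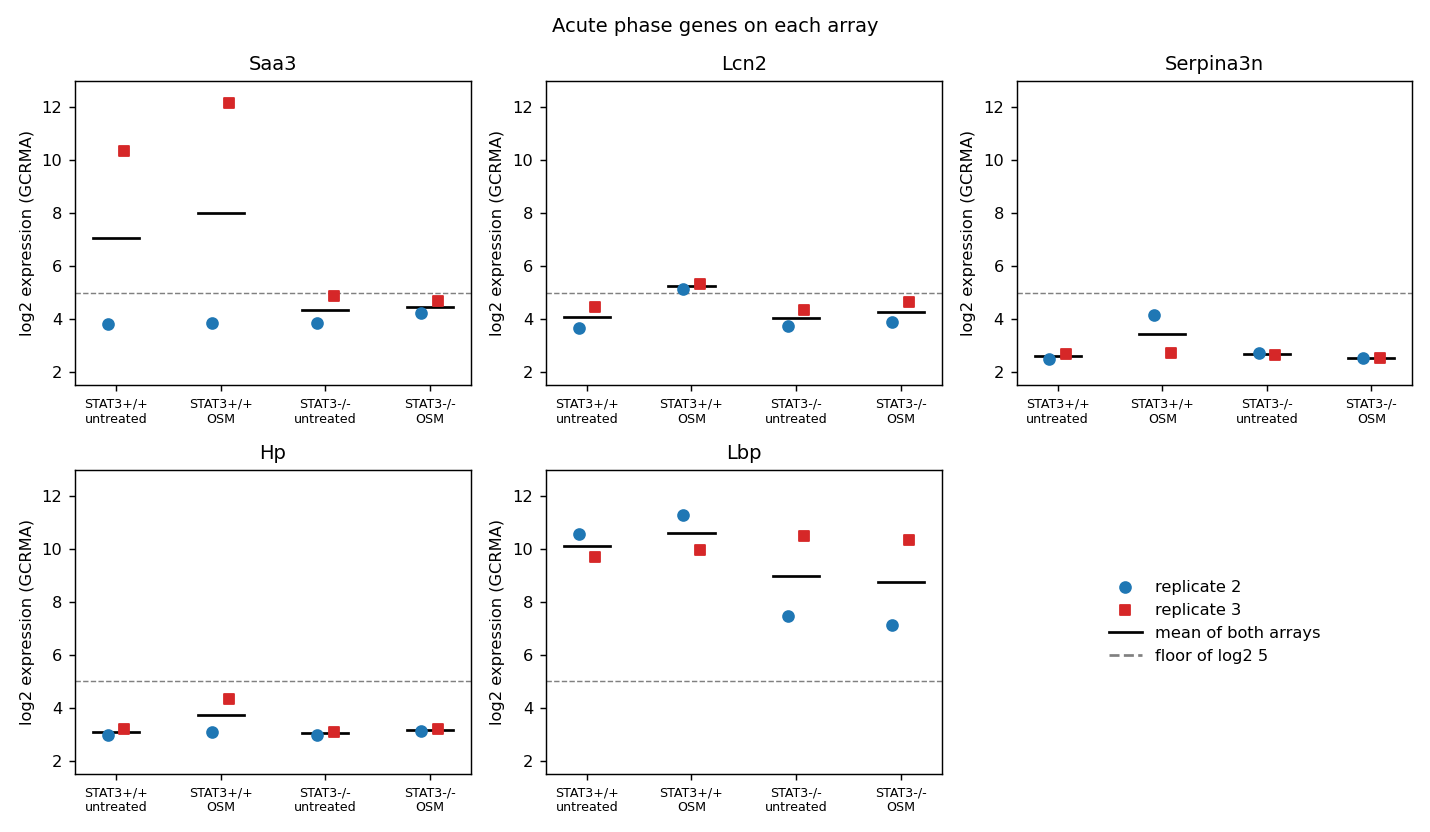
Log2 expression of the 5 measured acute phase genes on each of the 8 arrays (1 panel a gene, the same scale in all), by genotype and treatment on the x axis, with circles for replicate 2, squares for replicate 3, bars for the mean of both arrays and a dashed line at log2 5. Saa3 is above the line only on the 2 STAT3+/+ replicate 3 arrays (10.3 and 12.2), and Lbp is lowest on the 2 STAT3-/- replicate 2 arrays (7.46 and 7.14).

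Saa3 was measured by 1 probe set, 102712_at. In untreated STAT3+/+ cells its log2 level was 3.81 in replicate 2 and 10.3 in replicate 3. With OSM it was 3.85 and 12.2. In untreated STAT3-/- cells it read 3.83 and 4.85, and 4.22 and 4.67 after treatment. The gene was thus far above background in both STAT3+/+ replicate 3 arrays and below 5 on the other 6. The group means followed the order STAT3+/+ with OSM (8.02 ± 5.89, SD, n = 2), STAT3+/+ untreated (7.08 ± 4.62), STAT3-/- with OSM (4.44 ± 0.31) and STAT3-/- untreated (4.34 ± 0.72), and no neighbours in that order differed beyond their spread. Other serum amyloid A genes did not show the pair of high arrays. Saa2, by 2 probe sets, stayed between 2.63 and 3.62, Saa4 between 3.01 and 3.44, and the pseudogene Saa-ps between 2.90 and 3.57. These family members are similar in sequence, and cross-reaction between their probe sets was not tested.

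Lcn2 was read by probe set 160564_at. Untreated STAT3+/+ cells had 3.66 in replicate 2 and 4.47 in replicate 3, and OSM-treated STAT3+/+ cells had 5.12 and 5.34. Untreated STAT3-/- cells had 3.73 and 4.33, and OSM-treated STAT3-/- cells 3.88 and 4.63. The 2 STAT3+/+ arrays with OSM were the highest of the 8 and lay just above 5. The share of all genes that split the arrays in this way was not counted. In order of the means, STAT3+/+ with OSM (5.23 ± 0.15, SD, n = 2) was above STAT3-/- with OSM (4.25 ± 0.53) by more than the spread of either, and the remaining groups, STAT3+/+ untreated (4.06 ± 0.58) and STAT3-/- untreated (4.03 ± 0.42), lay within each other's spread. The second Lcn2 probe set, 161684_r_at, did not show this: it stayed between 0.34 and 0.57 on all arrays.

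Serpina3n (104374_at) was near background on 7 arrays. Its values were 2.49 and 2.69 in untreated STAT3+/+ cells, 4.16 and 2.73 after OSM, 2.72 and 2.64 in untreated STAT3-/- cells, and 2.54 and 2.52 after OSM, with replicate 2 first in each pair. The single raised value was that of STAT3+/+ OSM replicate 2. Haptoglobin (Hp, 96092_at) likewise had a single raised value, but in the other number. It read 2.97 and 3.21 in untreated STAT3+/+ cells, 3.07 and 4.34 after OSM, 2.98 and 3.08 in untreated STAT3-/- cells and 3.10 and 3.18 after OSM. None of these values reached 5, so all of them lie near the background. In order of the means, Serpina3n ran from STAT3+/+ with OSM (3.45 ± 1.02, SD, n = 2) through STAT3-/- untreated (2.68 ± 0.06) and STAT3+/+ untreated (2.59 ± 0.14) to STAT3-/- with OSM (2.53 ± 0.01). Hp ran from STAT3+/+ with OSM (3.70 ± 0.90) through STAT3-/- with OSM (3.14 ± 0.06) and STAT3+/+ untreated (3.09 ± 0.17) to STAT3-/- untreated (3.03 ± 0.07). For both genes the mean of the leading group exceeded the next by less than its own SD. The other neighbours differed by less than the larger of their SDs.

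Lbp (96123_at) was above 5 on all 8 arrays. Untreated STAT3+/+ cells had 10.6 in replicate 2 and 9.71 in replicate 3, and 11.3 and 9.96 with OSM. Untreated STAT3-/- cells had 7.46 and 10.5, and OSM-treated ones 7.14 and 10.4. The 2 STAT3-/- replicate 2 arrays were low, and the 2 STAT3-/- replicate 3 arrays lay among the STAT3+/+ values. The means ran from STAT3+/+ with OSM (10.6 ± 0.94, SD, n = 2) and STAT3+/+ untreated (10.1 ± 0.59) to STAT3-/- untreated (8.97 ± 2.14) and STAT3-/- with OSM (8.75 ± 2.27). No neighbours in that order differed beyond their spread.

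In STAT3+/+ cells all 5 genes read higher with OSM than without within both numbers, by widely different amounts. Saa3 differed by 0.04 (log2) within replicate 2 and by 1.83 within replicate 3. Lcn2 differed by 1.47 and 0.87, Serpina3n by 1.68 and 0.04, Hp by 0.10 and 1.13, and Lbp by 0.74 and 0.25. For Saa3, Serpina3n and Hp a single number carried nearly all of the difference. Lcn2 read higher in both numbers, but its untreated values lie below 5 and its OSM values just above. The second Lcn2 probe set, at its far lower level, read lower with OSM within both numbers (-0.031 and -0.060). Of all 8251 genes 17.5% were higher with OSM within both numbers and 51.4% lower, and of the genes kept 26.6% and 41.4%. The median over the 5 members was 0.86, against -0.06 over all genes.

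In STAT3-/- cells 2 of the 5 genes were higher with OSM within both numbers and 2 were lower, against 48.1% and 21.2% of all genes. Lcn2 differed by 0.14 and 0.30 and Hp by 0.13 and 0.11. Serpina3n differed by -0.18 and -0.12 and Lbp by -0.32 and -0.13, and Saa3 by 0.39 and -0.19. The median over the 5 members was 0.10, against 0.09 over all genes. The 5424 probe sets below 5 on every array moved by a median of 0.11 and 0.13 in the same comparison, so the differences of Hp and, within replicate 2, of Lcn2 were about the size of the shift in background.

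**Figure D2:**
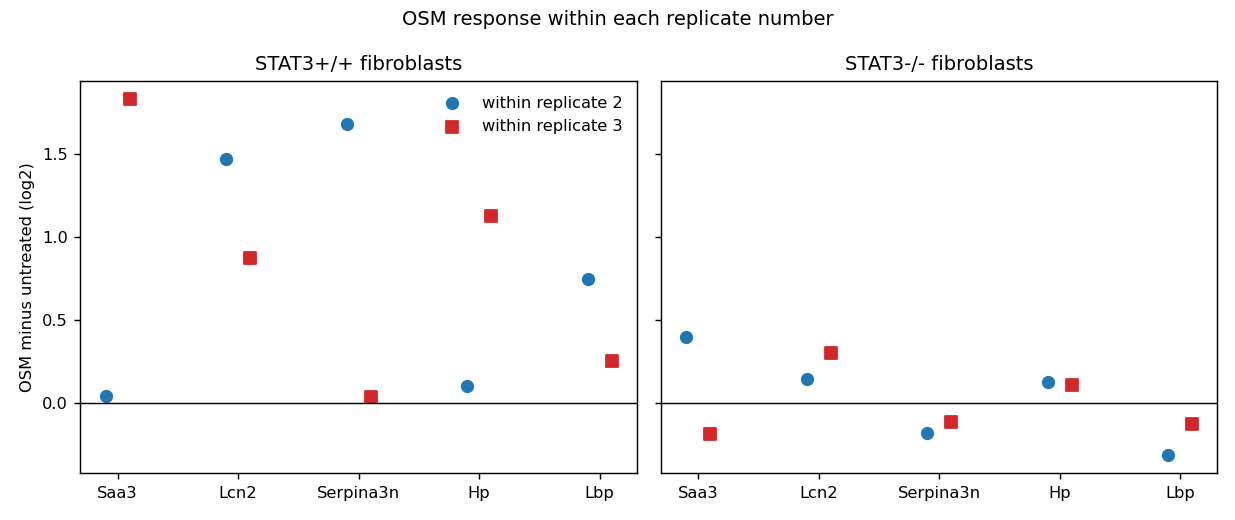
OSM minus untreated (log2) within replicate 2 (circles) and within replicate 3 (squares) for the 5 measured genes, with STAT3+/+ cells on the left and STAT3-/- cells on the right. All 10 points of STAT3+/+ cells lie above 0, from 0.04 to 1.83, and the points of STAT3-/- cells lie between -0.32 and 0.39.

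None of the 3 kept genes passed limma's test for a response to OSM in either genotype, and 0.0% of the 6756 probe sets did, with 126 and 138 at an unadjusted p under 0.05. With the replicate number as a block, 0.0148% passed in STAT3+/+ cells and 0.0296% in STAT3-/- cells, with 485 and 746 at an unadjusted p under 0.05, and no member was among them. The single probe set called in STAT3+/+ cells was Hk2, the glycolytic enzyme hexokinase 2 (3.39 ± 0.18 higher, limma, adjusted p = 0.0191). Hk2 (3.09) and Ereg, the growth factor epiregulin (6.85), were the 2 called in STAT3-/- cells; both genes are named after their values were seen. Lcn2 differed by 1.17 ± 0.49 (SE) in STAT3+/+ cells (limma, adjusted p = 0.9999), and by 0.22 ± 0.49 in STAT3-/- cells. Lcn2 was among the probe sets tested only through its 2 STAT3+/+ OSM arrays. Its p in comparisons with that group, with or without the block, is therefore given as a description. Saa3 differed by 0.94 ± 3.05 and 0.10 ± 3.05, and Lbp by 0.50 ± 1.36 and -0.22 ± 1.36. The large errors of Saa3 and Lbp come from arrays of 1 group that lie far apart, as the levels above show. With the block, the error of Lcn2 in STAT3+/+ cells fell to 0.25 and its adjusted p in limma was 0.358. The response of STAT3-/- cells minus that of STAT3+/+ cells was -0.83 ± 4.32 for Saa3, -0.95 ± 0.70 for Lcn2 and -0.72 ± 1.93 for Lbp. No kept member passed this comparison of the responses in limma, nor did any probe set (0.0%), with 29 at an unadjusted p under 0.05. With the block no probe set passed either, with 248 at an unadjusted p under 0.05. Without STAT3+/+ untreated replicate 2 the OSM difference of Saa3 in STAT3+/+ cells turned to -2.33, and without STAT3+/+ OSM replicate 3 to -3.23, since a group then holds 1 number alone.

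Between genotypes, no member passed the limma test either, in untreated cells, with OSM or averaged over both. Of all probe sets 0.0%, 0.0148% and 0.0148% did, and 151, 243 and 388 had an unadjusted p under 0.05. With the replicate number as a block the shares were 0.0%, 0.104% and 0.429% and those numbers 653, 814 and 1176, again with no member called. Without the block the single probe set called, in both of the last 2 comparisons, was Cx3cl1, the chemokine fractalkine, higher in STAT3-/- cells by 6.10 ± 0.36 on average (limma, adjusted p = 0.0141); it is named after its value was seen. STAT3-/- minus STAT3+/+ averaged over both treatments was -3.15 ± 2.16 for Saa3, -0.51 ± 0.35 for Lcn2 and -1.52 ± 0.96 for Lbp. Their adjusted p was 0.9995 each in limma, and 0.330, 0.231 and 0.442 with the number as a block. Saa3 and Lcn2 were tested only through 2 STAT3+/+ arrays each, which lie on the high side of this comparison.

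Within the numbers, the difference between genotypes depended on the number. The values here are log2 differences, STAT3-/- minus STAT3+/+, with replicate 2 first. Saa3 differed by 0.02 and -5.49 in untreated cells, and by 0.37 and -7.51 with OSM. Lbp differed by -3.09 and 0.77 in untreated cells, and by -4.15 and 0.39 with OSM. Lcn2 differed little without OSM (0.08 and -0.14) and was lower in STAT3-/- cells with OSM within both numbers (-1.25 and -0.71). Serpina3n was also lower within both numbers with OSM (-1.63 and -0.21), and Hp was not (0.03 and -1.15). That makes 2 of the 5 members, against 18.85% of all 8251 genes. Among the genes kept it was 1 of 3 members, against 28.6% of the 5195.

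This dependence was tested with limma by a term for genotype by number, added after the values were seen. It takes the untreated and the OSM array of a genotype and number together, so that 2 residual degrees of freedom remain. Saa3 and Lbp passed it, as did 5.6% of all probe sets. Saa3 was among the probe sets tested only through its 2 high STAT3+/+ replicate 3 arrays, and the term was chosen after that pattern was seen, so its p is given as a description and the count of members is not read against that share. The replicate 3 minus replicate 2 difference of Saa3 was 7.43 ± 0.46 in STAT3+/+ cells and 0.73 ± 0.46 in STAT3-/- cells, and the second minus the first was -6.69 ± 0.65 (limma, adjusted p = 0.0149). By size it stood at rank 5 of 6756. For Lbp the difference was -1.09 ± 0.21 in STAT3+/+ cells and 3.11 ± 0.21 in STAT3-/- cells, so the direction was opposite, and the second minus the first was 4.20 ± 0.30 (limma, adjusted p = 0.0126). For Lcn2 it was 0.16 ± 0.32 (limma, adjusted p = 0.811), with 0.51 in STAT3+/+ cells and 0.67 in STAT3-/- cells. Other gene groups differed in the same term: 13 of 25 kept proliferation genes (list median 1.90) and 6 of 23 kept interferon-stimulated genes (list median 2.21) passed it, all with a positive term. The proliferation list fell in replicate 3, by a median of -3.08 in STAT3+/+ cells and -1.19 in STAT3-/- cells. The interferon-stimulated list rose, by 2.25 and 5.23. The summed proliferation level was 14.2 to 14.5 (log2) on the 2 STAT3+/+ replicate 3 arrays, where Saa3 was high, against 15.1 to 16.8 on the other 6. The part of these groups in the Saa3 and Lbp results was not tested.

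Within replicate 3, STAT3-/- minus STAT3+/+ over both treatments was -6.50 ± 0.46 for Saa3 (limma, adjusted p = 0.0049), in a comparison that 7.55% of all probe sets passed. With no filter it did not pass (limma, adjusted p = 0.0668; 0.33% of 12422 probe sets did), and the high side of the comparison is again the pair of arrays through which Saa3 was tested. Within replicate 2, it was -3.62 ± 0.21 for Lbp (limma, adjusted p = 0.0033), in a comparison that 5.85% passed. Saa3 within replicate 2 (0.19) and Lbp within replicate 3 (0.58) did not pass, with adjusted p of 0.820 and 0.178. As in the genotype by number term, 2 residual degrees of freedom remain. The errors come from how far the OSM difference of a genotype varied between the numbers, not from repeats of a genotype within a number. These comparisons were also added after the values were seen, so the p-values of Saa3 and Lbp are given as descriptions. These calls rest on few arrays. Without any 1 of the 4 STAT3+/+ arrays, or without STAT3-/- OSM replicate 2, the genotype by number term of Saa3 no longer passed (limma, adjusted p from 0.0507 to 0.0971), and without any 1 of the 4 STAT3+/+ arrays that of Lbp did not (0.0989 to 0.109). Within replicate 2 the call of Lbp was lost without STAT3+/+ untreated (0.0824) or STAT3+/+ OSM replicate 2 (0.0736), and within replicate 3 that of Saa3 without STAT3+/+ OSM replicate 3 (0.0540). With all 12422 probe sets tested, neither gene passed the term (limma, adjusted p = 0.0595 and 0.0581), as 0.0564% of them did. Without STAT3-/- OSM replicate 3, the array with the raised Stat3 probe set, both passed, at -6.40 and 4.11.

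**Figure D3:**
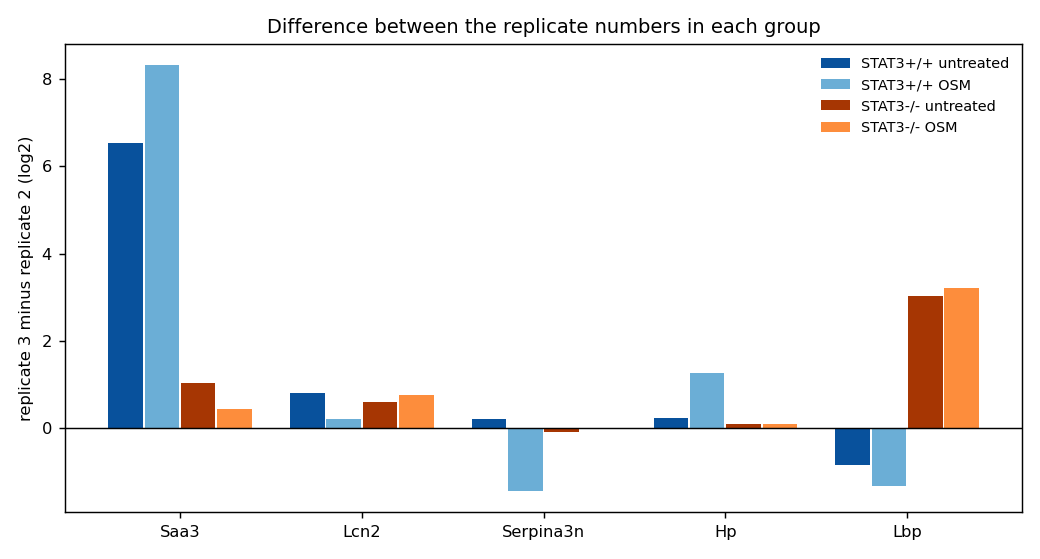
Replicate 3 minus replicate 2 (log2) for the 5 measured genes in each of the 4 groups, 1 bar a group and no error bars since each bar is 1 difference between 2 arrays. Saa3 is 6.53 and 8.32 higher in replicate 3 of STAT3+/+ cells against 1.02 and 0.44 in STAT3-/- cells, and Lbp is lower in replicate 3 of STAT3+/+ cells (-0.84 and -1.33) and higher in that of STAT3-/- cells (3.02 and 3.21).

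Over both genotypes, Lcn2 alone of the 3 kept members passed between the numbers, 0.59 ± 0.17 higher in replicate 3 (limma, adjusted p = 0.0407), against 41.1% of all probe sets. It did not pass under quantile normalization, median centring or a floor of 5, nor without any 1 of the 8 arrays (limma, adjusted p from 0.0651 to 0.143). The probe sets below 5 on every array were themselves higher in replicate 3, by medians of 0.21 to 0.39. Saa3 differed by 4.08 ± 1.44 (limma, adjusted p = 0.0693) and Lbp by 1.01 ± 0.90 (adjusted p = 0.394).

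Of the markers of other cell types, some were expressed. None of 13 neutrophil markers reached 5 on any array, with Elane between 2.10 and 2.38 and S100a8 between 3.04 and 3.59. Of 14 macrophage and leukocyte markers 1 or 2 did: Csf1r on all arrays, and Cd53 at 8.29 on STAT3+/+ OSM replicate 3, one of the arrays with high Saa3, while Ptprc (3.24 to 4.34), Adgre1 (2.57 to 3.36) and Lyz2 (2.79 to 3.64) stayed low. Of 14 hepatocyte markers 0 to 2 reached 5. Albumin (Alb) stayed between 2.38 and 2.86, and Apob read 5.77 and 5.02 on the 2 STAT3+/+ replicate 3 arrays. The summed hepatocyte level on these arrays was 7.63 to 7.85 (log2), against 7.04 to 7.59 on the other 6. Of 9 adipocyte markers 2 reached 5 on every array, the desaturase Scd1 (13.3 to 14.1) and the lipoprotein lipase Lpl, while Adipoq (2.19 to 2.84), Fabp4 (3.83 to 4.86) and Lep (3.72 to 4.09) did not. Lpl rose in replicate 3 by 2.78 (limma, adjusted p = 0.0032) and read 13.3 and 12.7 on the 2 STAT3+/+ replicate 3 arrays, against 8.85 to 12.2 on the other 6. The summed adipocyte level was 14.3 to 14.8 on these 2 arrays and 13.4 to 14.2 on the other 6. Of 10 endothelial markers 3 reached 5 on each replicate 2 array and 5 on each replicate 3 array, with Kdr (1.99) and Emcn (0.74) called higher in replicate 3, while Cdh5 stayed between 2.39 and 2.84. Kdr was highest, at 8.12, on STAT3+/+ OSM replicate 3. The summed endothelial level was 8.84 to 9.33 on the 2 STAT3+/+ replicate 3 arrays and 8.36 to 9.08 on the other 6. Of 13 epithelial markers 0 to 2 reached 5. The summed macrophage and leukocyte level was 9.252 to 9.901 on the 2 STAT3+/+ replicate 3 arrays, within the 9.089 to 10.31 of the other 6. The epithelial level, at 7.197 to 7.279, also lay within that of the other 6 (6.816 to 7.498). For neutrophil markers it was 6.826 to 6.927, against 6.508 to 6.896. The summed fibroblast level was highest on these 2 arrays, at 18.67 to 18.81 against 17.93 to 18.57. The part of Cd53, Apob, Lpl, Kdr and these marker lists in the Saa3 result was not tested. In such bulk RNA, fewer cells that express a gene and less RNA per cell cannot be told apart.

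The genes whose pattern over the 8 arrays was most like each kept member's were ranked by Pearson r of log2 levels. These correlations are descriptions, since the arrays share genotype, treatment and number. For Saa3 they were Ephx2, an epoxide hydrolase (r = 0.999), Clip4 (0.996) and the fibroblast marker Lum, the matrix proteoglycan lumican (0.990). Lum read 8.04 and 8.44 on the 2 STAT3+/+ replicate 3 arrays and 2.56 to 3.29 elsewhere. After the mean of each number was subtracted, Clip4 and Ephx2 remained among the first 3, with Adipor1. By Spearman rank, none of the 3 did, since the order among the 6 low arrays then counts as much as the high pair.

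For Lcn2 the genes most like it were Nufip1 (r = 0.969), the interleukin-4 receptor chain Il4ra (0.947) and the iron transporter Slc11a2 (0.944), and 1 of the 3 was also among the first 3 by Spearman rank. After the number means were subtracted they were Tnfaip3, an inhibitor of NF-kB signalling (0.986), Wdr46 (0.985) and Gcnt2 (0.982). Tnfaip3 read 6.06 and 5.40 in STAT3+/+ cells with OSM and 3.49 to 4.35 elsewhere, a split of the arrays like that of Lcn2. For Lbp they were Comtd1 (0.966), the laminin chain Lama5 (0.961) and Gadd45b (0.954). None of these was shared with the centred ranking, led by Gmnn (0.992), Acot8 (0.989) and Srrt (0.987), or with the Spearman ranking.

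**Figure D4:**
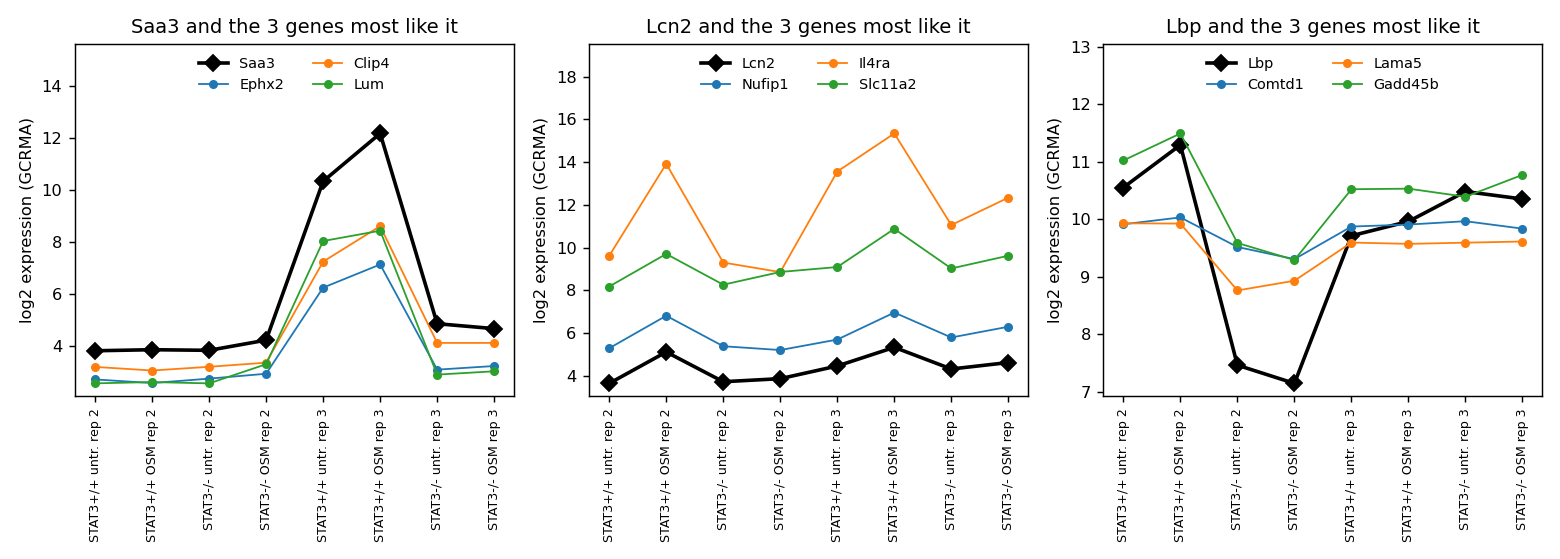
Log2 expression of Saa3, Lcn2 and Lbp (black diamonds) and of the 3 genes with the highest Pearson r to each (coloured circles) over the 8 arrays, ordered by replicate number; each panel has its own y axis, and lines only join the arrays of a gene. Ephx2, Clip4 and Lum rise with Saa3 on the 2 STAT3+/+ replicate 3 arrays, and the genes most like Lbp are lowest on the 2 STAT3-/- replicate 2 arrays.

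The surrounding pathway was read from 7 lists with 208 genes, of which 159 were on the array and 85 were kept: other acute phase proteins, complement, LPS recognition, iron and haem handling, serpins, inducing cytokines and receptors, and inducing transcription factors with their feedback inhibitors. Of 38 other acute phase genes on the array 10 were kept. None of the 85 genes passed limma in any of the 6 comparisons of genotype and OSM. With the number as a block, Irf1 (2.64 higher) and Stat3 (2.94 lower) passed in STAT3-/- against STAT3+/+ cells with OSM, and Irf1 (1.64), Stat3 (-2.65), Cebpd (-2.30) and ceruloplasmin, Cp (-1.30), passed averaged over both treatments. The adjusted p of these 4 averages in the blocked limma fit lay between 0.0193 and 0.0471. In that fit 0.104% of all probe sets passed with OSM and 0.429% averaged.

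On the receptor side, gp130 (Il6st) was 0.94 higher with OSM in STAT3+/+ cells and 0.10 in STAT3-/- cells. The OSM receptor Osmr was 2.07 and 3.39 higher, and the interleukin-1 receptor Il1r1 1.96 and 1.69. Among transcription factors, Cebpb was 0.84 and 0.74 higher with OSM and Cebpd 3.12 and 1.88. The NF-kB inhibitor Nfkbia differed by 0.03 and 0.91. Socs3, the feedback inhibitor of gp130 signalling, was 4.89 and 3.71 higher, and every OSM array read higher for it than the untreated array of its genotype and number. None of these differences passed limma, with an adjusted p of 0.9999 each. The genes with the smallest p, also not passing, were Il17ra (2.20), Serpinb2 (5.47) and Stat3 (1.57) with OSM in STAT3+/+ cells, and Socs1 (7.23), Socs3 and Stat3 (0.99) in STAT3-/- cells. For the difference between the responses they were Socs1 (6.05), Il17ra (-1.62) and Serpinb2 (-3.29). Between genotypes they were Stat3 (-2.36), Serpinb6a (-0.86) and Il1rn (2.30) in untreated cells, and Stat3, Socs1 (7.36) and Il17ra (-1.81) with OSM. Averaged over both treatments they were Stat3 (-2.65, limma, adjusted p = 0.0689), Il1rn (2.84) and Socs1 (4.34).

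Between the numbers 40 of the 85 genes passed limma, 32 higher and 8 lower in replicate 3, which is 47.1% against 41.1% of all probe sets. The counts by list are of genes called, and a gene in more than 1 list is counted in each. Of 27 transcription factors and feedback genes 12 were called higher and 2 lower, and of 16 cytokines and receptors 7 and 0. Of 9 complement genes the calls were 3 higher and 1 lower, of 9 iron and haem genes 3 and 2. Of 10 LPS recognition genes they were 2 and 2, and of 7 serpins 2 and 1. Of the 10 other acute phase genes 4 were called higher and 1 lower. These were Itih2 (4.37), the retinol carrier Rbp4 (3.07), the copper oxidase Cp (2.39) and Orm1 (0.58), which rose, and Serpinf2, which fell by 1.53. In the term for genotype by number 11 of the 85 passed, or 12.9% against 5.6%, 5 lower and 6 higher. The lower ones were the complement regulator Cd55 (-4.13), Rbp4 (-3.44), Il1r1 (-3.02), the LPS co-receptor Cd14 (-2.0) and Serpinf1 (-1.28). Their term had the sign of that of Saa3, by different routes. In replicate 3, Rbp4 rose in STAT3+/+ and STAT3-/- cells (4.79 and 1.35). Il1r1 rose only in STAT3+/+ cells (2.89 and -0.13), and Cd14 rose in STAT3+/+ cells and fell in STAT3-/- cells (0.98 and -1.02). The higher ones were the pentraxin Ptx3 (3.37), Socs1 (2.76), the interleukin-1 receptor antagonist Il1rn (2.44), Fos (2.40), Serpinb9 (1.83) and Il6st (1.27). Their term had the sign of that of Lbp. Il1rn (-1.42 and 1.02) and Il6st (-0.52 and 0.76) also ran in opposite directions in the genotypes, while Fos rose in both (4.96 and 7.36). Cd55 split the arrays as Saa3 did: it read 9.37 and 8.42 on the 2 STAT3+/+ replicate 3 arrays and 4.24 to 4.94 on the other 6. Like Saa3, Cd55 was tested only through these 2 arrays. Its pass in the term, counted in the 12.9%, is therefore given as a description. Ptx3 split the arrays as Lbp did, with 8.89 and 9.60 on the 2 STAT3-/- replicate 2 arrays and 12.4 to 13.7 on the rest. Il6, the main cytokine inducer of hepatic acute phase genes, read 6.53 and 10.2 in STAT3+/+ replicate 3, 7.05 in STAT3-/- OSM replicate 3 and 3.58 to 4.41 on the other 5 arrays.

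**Figure D5:**
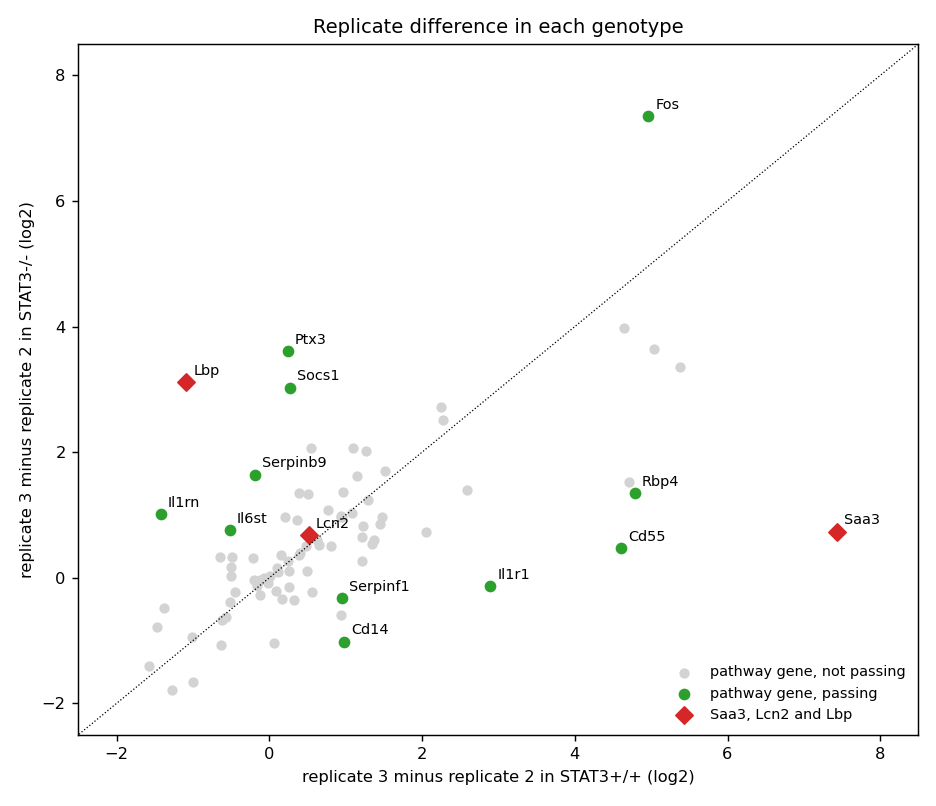
Replicate 3 minus replicate 2 (log2, mean of the untreated and OSM differences) in STAT3+/+ cells on the x axis and in STAT3-/- cells on the y axis, for the 85 kept pathway genes and, as red diamonds, Saa3, Lcn2 and Lbp; green marks the 11 pathway genes that passed the genotype by number term, and the dotted line is equality. Saa3 lies farthest to the right (7.43 against 0.73), Lbp is above the line (-1.09 against 3.11) and Lcn2 is near it.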

How the data were processed

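The deposited table holds log2 expression values per probe set, made by the authors from Affymetrix arrays with affy and GCRMA, per the submitters' processing notes; no versions are stated there. GCRMA normalizes the arrays together and models probe background, so low values are compressed. Of 12488 probe sets, 66 controls were left out, 10833 had a single gene symbol, 396 several and 1193 none, and 10817 of the single ones matched RefSeq. The titles assign treatment, since the labels describe OSM for every sample.

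Group means of all 8 arrays were fitted with limma 3.58.1 (R 4.3.3; intensity trend, 4 residual degrees of freedom) over 6756 probe sets with log2 of at least 5 on at least 2 arrays. Tests were two-sided, Benjamini-Hochberg adjusted over these, and called at an adjusted p under 0.05. The fit of the genotypes averaged over both treatments was tested on simulated data, with and without the block. The other comparisons, the genotype by number and within-number terms among them, were not. The 8 arrays limit the precision. A gene was led by its kept probe set with the highest mean. The number correlated between groups (r of replicate 3 minus replicate 2 from 0.589 to 0.911, all above 0.1), so the fit with the number as a block is given beside the unblocked one, where it changes a count. Members and lists were chosen with earlier results of these data known. Besides all members, Stat3, Il6st, Osmr, Il1r1, Cebpb, Cebpd, Nfkbia and Socs3, pathway genes were named where they passed, or else the 3 with the smallest p over the pathway lists together; named for the genotype by number term are all that passed, and for the number itself the other acute phase genes that passed. The terms for genotype by number and within each number were added after the values were seen. Promoter sequences come from RefSeq (GRCm38.p6). Alternatives were the filter (none, or log2 of 7), no trend, robust variance, quantile normalization, median centring, a floor of 5, the block, only the groups compared, and leaving out each array.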

Additional observations from a re-analysis of the deposited data

Results flagged for a closer look

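The replicate 3 minus replicate 2 difference differed between the genotypes for Saa3 by -6.69 and for Lbp by 4.20 (log2, STAT3-/- minus STAT3+/+, limma adjusted p = 0.0149 and 0.0126). These p-values are descriptions, since the term was added after the values were seen. Saa3 was tested only through its 2 high STAT3+/+ replicate 3 arrays. With no filter neither gene passed (limma, adjusted p = 0.0595 and 0.0581).

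For 3 probe sets the OSM difference ran one way within both numbers of STAT3+/+ cells and the other way within both numbers of STAT3-/- cells. Of all 12422 probe sets 2.85% ran higher in STAT3+/+ and lower in STAT3-/- cells, as Lbp and Serpina3n did, and 0.0922% of the 5424 below log2 5 on every array, as Serpina3n is. The opposite, as for the second Lcn2 probe set, held for 31.4% of all probe sets and for 59% of those 5424, so that probe set ran as most of the background did. The 5424 had medians with OSM of -0.05 and -0.08 in STAT3+/+ cells and 0.11 and 0.13 in STAT3-/- cells. They are part of the 2.85%, and the share among the brighter probe sets alone, such as that of Lbp, was not counted. Serpina3n differed by only 0.04 within replicate 3 of STAT3+/+ cells, so its low share is not read as a result. The mean difference of the OSM effects, STAT3-/- minus STAT3+/+, was -0.72 for Lbp, -1.01 for Serpina3n and 0.12 for the second Lcn2 probe set, which went against the first. That of Lbp did not pass limma's test (-0.72 ± 1.93, SE). The other 2 lie below log2 5 on every array and were left out of the main test, so their difference was tested only with no filter, where it did not pass either (limma, adjusted p = 0.9999 for both).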

How the results depend on the processing

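No member was called for genotype or OSM under any alternative run. With the replicate block the probe sets called numbered 1 and 2 for OSM in STAT3+/+ and STAT3-/- cells, 7 between genotypes with OSM and 29 averaged; the block changed no other call of a member. For OSM in STAT3-/- cells a floor of 5 called 1 probe set. Between genotypes with OSM, the 1 call became 0 with robust variance, quantile normalization, median centring, the floor or only the groups compared, and leaving out 1 array gave 0 to 1, as it did averaged. With no filter, calls numbered 3 (averaged), 7210 (number), 7 (genotype by number), 67 (within replicate 2) and 41 (within replicate 3); the members called fell to 0 for the genotype by number term (Saa3 -6.69, Lbp 4.20) and within replicate 3 (Saa3 -6.50). The member called between the numbers became 0 with a filter at 7, quantile normalization, centring or the floor, and 2 within STAT3+/+ cells, where Lbp reversed to -1.09. The Lcn2 term for genotype by number reversed to -0.11 with the floor. The second Lcn2 probe set reversed the sign of the first in 6 comparisons: -0.046 (OSM in STAT3+/+), 0.093 (genotypes with OSM), 0.12 (difference of the responses), 0.031 (averaged), -0.089 (genotype by number) and 0.075 (within replicate 2); cause not tested.

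Leaving out each array gave 1223 to 2599 calls for the number (members 0 to 1), 0 to 251 for genotype by number (members 0 to 2), 0 to 596 within replicate 2 (0 to 1) and 8 to 754 within replicate 3 (0 to 1). Saa3 ranged from -7.59 to -5.80 and Lbp from 3.95 to 4.45 in the genotype by number term. Over the same fits OSM in STAT3+/+ cells gave Saa3 -3.23 to 5.10 and Lbp -0.17 to 1.16, and in STAT3-/- cells Saa3 -0.41 to 0.61, Lcn2 -0.15 to 0.60 and Lbp -1.83 to 1.38. The genotypes untreated gave Saa3 -6.002 to 0.53, Lcn2 -0.44 to 0.38 and Lbp -2.67 to 0.35, and with OSM Saa3 -7.73 to 0.59. The difference of the responses gave Saa3 -4.996 to 3.33 and Lbp -2.32 to 0.88. The Lcn2 term for genotype by number gave -0.14 to 0.46. Within replicate 2, Saa3 gave -0.70 to 1.09 and Lbp -3.87 to -3.37, and within replicate 3, Saa3 gave -7.40 to -5.61. The low values of Serpina3n, Hp and the second Lcn2 probe set limit what their differences can show.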
